A study of Strongylocentrotus purpuratus and Patiria miniata with 4 samples.

Results

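Tbrain (Tbr) summits of the sea star Patiria miniata that lay 200 bp or less from another summit are described here, a distance of about 1 nucleosome repeat. The list of sea star peaks, regions where chromatin pulled down with an antibody gave more sequence than its background, held 13977 peaks, each with 1 summit, its highest point. The members were chosen by the summit positions in that list: a peak was taken when the nearest other summit on its scaffold was at most 200 bp away. This rule took 761 peaks, 5.44% of the list, on 358 of 8491 scaffolds. They formed 386 pairs of neighbouring summits. The count depends on what is listed as a separate peak and on the distance limit. With intervals 50 bp or less apart merged it was 403. With peaks limited to a −log10 q (the deposited significance of the summit, adjusted over the genome) of 10 or more it was 366. It was 356 with a distance of 150 bp or less and 1098 with 250 bp or less. In the list, 1730 other peaks (12.4%) had their nearest summit at more than 200 and up to 1000 bp, and 11486 (82.2%) had no other summit within 1000 bp.

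The study used chromatin immunoprecipitation and sequencing (ChIP-seq) to map Tbr in 2 echinoderms. The sea star ChIP library came from hatched blastula embryos at about 30 hours after fertilization, with a custom antibody against the sea star protein, and the sea star input library came from the same stage with no antibody. The sea urchin Strongylocentrotus purpuratus had a ChIP library with an antibody against its own protein and an input library, both at mesenchyme blastula at about 24 hours. The labels name no strain, mutation or drug for any of the 4 samples. About 100000 embryos per sample were grown at 15 °C, fixed in 1% formaldehyde for 10 minutes, and their chromatin was cut with micrococcal nuclease. Chromatin of 2 to 3 cultures was pooled before each immunoprecipitation, so each list rests on 1 replicate and all cell types of the embryo are mixed. No spread between replicates could be computed, and no test was made.

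Tbr belongs to the T-box transcription factors, which bind short DNA motifs through a shared T-box domain, in some cases as paired sites. It is known from the network that specifies the skeleton-forming mesenchyme of sea urchins, and it also acts in sea star embryos. Micrococcal nuclease cuts the linker between nucleosomes, so chromatin prepared with it comes apart in units of nucleosomes, each the DNA wrapped around a core of histones. The sequence under the summits was not analysed here, since no sea star genome was used, and the peaks are given by their scaffold positions. No source used here names the genome build.

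The summits were spread over a wide range of distances below the limit. The median distance within a pair was 154 bp (95% order-statistic interval 148 to 157, 386 pairs), with quartiles of 124 and 173 bp and extremes of 25 and 200 bp. The fullest class of 10 bp was 161 to 170 bp, with 52 pairs, followed by 151 to 160 bp with 44 and 191 to 200 bp with 42. Below 100 bp the pairs were few. The listed intervals were at least 84 bp wide and at least 1 bp apart, which limits how close listed summits can lie. The rule set the upper end, and the median was 122 bp with a limit of 150 bp and 172 bp with 250 bp. These distances therefore describe the listed summits, and a preferred spacing was not tested. Of neighbouring summits, 47 pairs were at most 100 bp apart, 132 were 101 to 150 bp apart and 207 were 151 to 200 bp apart. Past the limit, 175 pairs were 201 to 250 bp apart, 126 were 251 to 300 bp, 97 were 301 to 350 bp and 71 were 351 to 400 bp. The number of pairs therefore declined slowly through the limit, with no empty stretch at 200 bp.

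**Figure D1:**
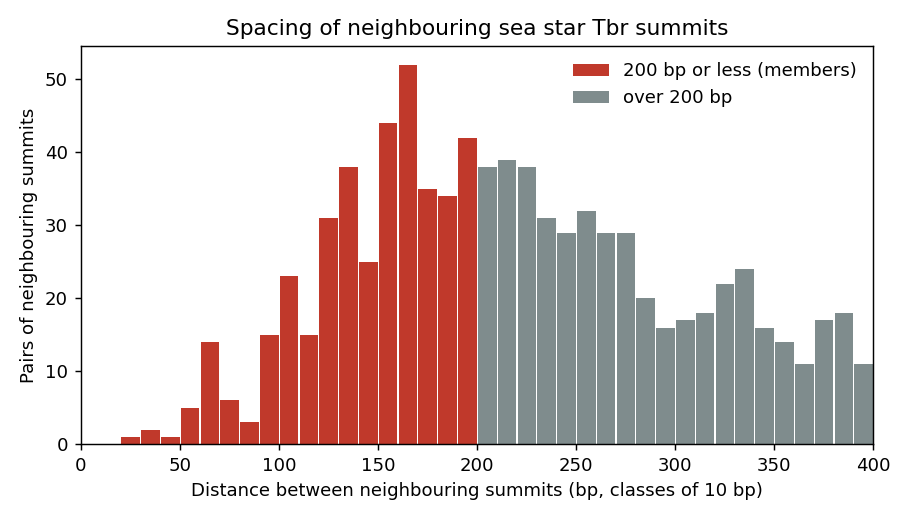
Pairs of neighbouring sea star summits (y axis) by the distance between them in classes of 10 bp (x axis), with members in red and pairs over 200 bp in grey. The fullest class is 161 to 170 bp with 52 pairs, and the classes on both sides of the limit hold 42 and 38.

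Pairs on both sides of the limit are given here with their fragments. Fragments here are the ChIP fragments that cover the summit, and the scaled input is the background that the peak caller set against them. Fold enrichment is the deposited ratio of the ChIP signal to that background. At 200 bp, the summits on Scaffold7201 at 47645 and 47845 each had 20 fragments, at a fold enrichment of 7.58. A further pair at 200 bp, on Scaffold67494 at 95 and 295, had 30 and 41 fragments and fold enrichments of 4.32 and 5.47. On Scaffold1344, at 199 bp, the summits at 37415 and 37614 had 91 and 87 fragments over a scaled input of 29.3 and 36.0. Other pairs at 199 bp had fewer, with 44 and 44 on Scaffold15163, 18 and 30 on Scaffold61055, and 22 and 28 on Scaffold7604. Just outside, at 201 bp, the summits on Scaffold4087 at 18773 and 18974 had 34 and 45 fragments, and those on Scaffold8934 at 33588 and 33789 had 50 and 33. On Scaffold12241, at 202 bp, the summits at 5493 and 5695 had 36 and 29. These values are a description of the limit and carry no test.

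The closest summits lay within the length of 1 fragment. As counted here that length was 84 bp, the smallest width in the list, so 1 such fragment can cover both summits of a closer pair. Of the 386 pairs, 30 (7.77%) were closer than 84 bp. The length of the DNA pieces themselves was not known, so wider pairs may share them too. The closest, 25 bp apart, was on Scaffold36, with peaks at 121539 to 121627 and at 121633 to 121716. Its summits had 21 and 19 fragments and fold enrichments of 4.78 and 3.55. On Scaffold56368, 2 summits 39 bp apart at 148 and 187 had 21 and 18 fragments, and on Scaffold31733, 2 summits 40 bp apart at 160 and 200 had 41 and 36. All these summits were nearer to the facing edge of their interval than to the far one. In the 30 pairs the median gap between the intervals was 4 bp, the median was 24 fragments per summit and the median fold enrichment was 4.62. In 0 of the 30 did both summits reach a −log10 q of 10, against 186 of the 356 pairs (52.2%) at 84 bp or more.

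Fragments per summit were most numerous at the largest distances within the limit. Pairs 84 to 119 bp apart had a median of 28 fragments per summit, those 120 to 149 bp apart 28, those 150 to 179 bp apart 29.5 and those 180 to 200 bp apart 33.5. The median fold enrichment over the same classes was 5.49, 5.67, 6.05 and 5.72, so it was highest in the class from 150 bp. The median scaled input was 4.11, 3.82, 4.11 and 4.63 fragments, so it too was highest in the last class. The median gap between the intervals was 20, 41, 67 and 88 bp. Median widths were 95, 94, 95 and 101 bp.

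Over all pairs, the gap between the intervals had a median of 53 bp (95% interval 50 to 58) and ran from 1 to 140 bp. In 179 pairs (46.4%) it was 50 bp or less, and in 37 pairs (9.59%) 4 bp or less. Intervals this close were thus listed as separate peaks. In the sea urchin list the smallest gap between any peaks was 69 bp, a size that 137 of the 386 sea star pairs (35.5%) reached. By the same distance rule the sea urchin list held 68 such peaks, 2.16% of 3149, in 34 pairs on 31 scaffolds, the closest 122 bp apart. The lists differ in how near 2 intervals may lie, so these shares are set side by side with no comparison of the species.

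Most members came as isolated pairs. Of the 761 peaks, 730 (95.9%) were in runs of exactly 2 summits, and 31 (4.07%) were in 9 runs of 3 and 1 run of 4. Exactly 2 members lay on 340 of the 358 scaffolds. On 136 scaffolds (38.0%) the pair was the whole set of peaks, and 213 (59.5%) held 3 to 9 peaks. Members lay on 9 of the 18 scaffolds with 10 or more peaks. Scaffolds with 10 or more peaks held 40 of the 761 members (5.26%), against 153 of the 1730 peaks at 200 to 1000 bp (8.84%). Of all 13977 peaks they held 282 (2.02%). A peak alone on its scaffold cannot be a member, so the rule itself favours such scaffolds. In the first 1000 bases of a scaffold lay 70 members (9.20%), against 1450 of all peaks (10.4%).

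The run of 4 summits was on Scaffold15163, at 2592, 2770, 2960 and 3159, with steps of 178, 190 and 199 bp. Its summits had 41, 45, 44 and 44 fragments, and their counting intervals overlapped, from 29.4 to 55.6 at the first and from 32.8 to 60.2 at the second. Their fold enrichments were 4.82, 4.72, 5.01 and 3.66 over scaled inputs of 7.71, 8.74, 7.99 and 11.3. The summits thus had 41 to 45 fragments over an input of 4.36 to 6.39 times the genome-wide mean. The overlap of their intervals does not show that the heights were equal.

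The 9 runs of 3 differed more among themselves. On Scaffold523 the summits at 103251, 103416 and 103582 were 165 and 166 bp apart, with 70, 43 and 51 fragments. On Scaffold2528 the summits at 88435, 88608 and 88802 were 173 and 194 bp apart, with 52, 61 and 41 fragments and fold enrichments of 7.39, 5.50 and 6.70. On Scaffold13152 the steps at 5082, 5270 and 5408 were 188 and 138 bp, with 30, 21 and 29 fragments. The middle summit had the fewest fragments in 5 runs, the most in 1 and a value between its neighbours in 3. The shortest steps were on Scaffold767, 67 and 94 bp, with 36, 33 and 32 fragments at 109023, 109090 and 109184. Of the 21 steps within the runs of 3 and 4, 17 (81.0%) were 130 bp or more. Scaffold2718 and Scaffold3646, both with 10 or more peaks, held 4 of the 9 runs.

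At the summits, members had more fragments and a lower fold enrichment than the list as a whole. The median member had 29 ChIP fragments (95% interval 28 to 30), with quartiles of 23 and 39, against 26 (26 to 27) over all sea star peaks. Peaks 200 to 1000 bp from a neighbour had 32 (31 to 32), and peaks with no summit within 1000 bp had 26. The median fold enrichment of members was 5.70 (5.56 to 5.88), against 5.67 (5.56 to 5.74) at 200 to 1000 bp, 6.22 (6.16 to 6.26) with no summit within 1000 bp and 6.14 (6.12 to 6.16) over all peaks. Intervals are over peaks of 1 library, which are not replicates, and the values come from the same ChIP and input that gave the summits. Members and peaks at 200 to 1000 bp were thus close in fold enrichment, and both were below peaks with no listed summit within 1000 bp. A neighbour beyond the end of a scaffold could not be seen. Of these last peaks, 1272 of 11486 (11.1%) lay in the first 1000 bases of a scaffold.

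The background under the members was raised. The median scaled input was 4.11 fragments (3.60 to 4.32) for members, or 2.32 times the genome-wide mean of 1.77, against 4.58 fragments at 200 to 1000 bp, 3.08 with no summit within 1000 bp and 3.33 over all peaks. A scaled input of 5 or more times the mean was found at 115 members (15.1%), against 327 peaks (18.9%) at 200 to 1000 bp and 566 (4.93%) with no summit within 1000 bp. Among pairs, both summits reached 5 times the mean in 41 and a single summit in 39. The scaled input of 43 members (5.65%) was at the genome-wide mean itself, against 1506 of all peaks (10.8%). The part that this background has in the lower fold enrichment of members was not tested.

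Read within levels of scaled input, members and other peaks had nearly the same fold enrichment. At 1 to 1.5 times the mean the median was 7.43 (7.22 to 7.58) for 200 members and 7.31 (7.28 to 7.49) for 4922 other peaks. At 1.5 to 2.5 times it was 6.06 (5.67 to 6.31) for 209 members and 6.06 (6.06 to 6.09) for 4167 other peaks. At 2.5 to 5 times it was 5.05 (4.88 to 5.26) for 237 members and 4.99 (4.96 to 5.05) for 3234 other peaks. At 5 or more times it was 3.41 (3.27 to 3.61) for 115 members and 3.61 (3.53 to 3.69) for 893 other peaks. The intervals overlapped at each level, and members were more often at the higher levels. Fold enrichment is itself a ratio to this input and all peaks had passed the caller, so the levels are a description. No cause was tested.

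**Figure D2:**
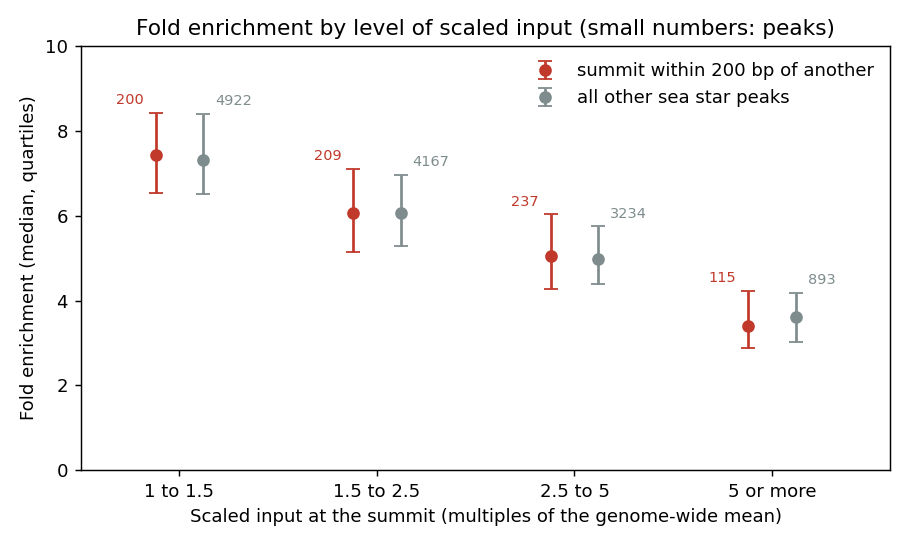
Fold enrichment (y axis; points are medians and bars are quartiles) at 4 levels of scaled input in multiples of the genome-wide mean (x axis), for members in red and all other sea star peaks in grey, with the number of peaks beside each bar. Medians fall with the input in both sets, to 3.41 for members and 3.61 for other peaks at 5 or more times the mean.

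The input near the summit itself set most backgrounds. The caller takes the highest of the genome-wide mean and the input in windows of 1 fragment, 1 kb and 10 kb around a summit, and the steps of the values show which. The window of 1 fragment set it at 569 members (74.8%), against 10194 of all peaks (72.9%), the 1 kb window at 128 members (16.8%), against 1851 (13.2%), and the 10 kb window at 21 members (2.76%), against 426 (3.05%). Where the window of 1 fragment set it, the median was 9 input reads for members, against 8 for all peaks. In 230 pairs (59.6%) both summits had their background from the window of 1 fragment. Input reads were thus present at the same positions as the ChIP fragments in most pairs. Their lower scaled level follows from the calling of a peak, and the share of the 1-fragment window was near that of all peaks.

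How the share of strong peaks among members compared with the list depended on the limit. Of 761 members, 26 (3.42%) had at least a 10-fold enrichment, against a background of 3.57% of all 13977 peaks. A −log10 q of 10 or more was reached by 525 members (69.0%), against 68.5% of all peaks. At these limits both shares are near the background and are no result about the members. Both summits had a −log10 q of 10 or more in 186 pairs (48.2%), against 585 of the 984 pairs 200 to 1000 bp apart (59.5%) and 1931 of the 4116 pairs of neighbouring summits more than 1000 bp apart (46.9%). Neither had in 40 pairs. With all sea star peaks ranked by −log10 q, members made up 1 of the first 10, 12 of the first 100 (12%) and 78 of the first 1000 (7.8%), against 5.44% of the whole list. Places of the peaks at 200 to 1000 bp in this ranking were not counted. A −log10 q of 10 or more was reached by 1303 of those 1730 peaks (75.3%), a larger share than among members.

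Pairs were ranked by the −log10 q of their weaker summit, and the first 8 came from 8 scaffolds. At the head stood Scaffold81, with peaks at 238564 to 238662 and at 238739 to 238851. Its summits, 185 bp apart, had 110 fragments (95% Poisson interval 90.4 to 133) and 116 fragments (95.9 to 139). Their scaled inputs of 23.5 and 31.9 were high, so the fold enrichments were 4.53 and 3.56. The pair on Scaffold11048, at 43299 to 43390 and at 43455 to 43563, had 39 fragments (27.7 to 53.3) and 37 fragments (26.1 to 51.0) over scaled inputs of 3.08 and 2.38. With fold enrichments of 9.79 and 11.3, it reached a similar significance with fewer fragments.

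The pair on Scaffold2528, at 88435 and 88608, is part of the run described above. On Scaffold756 the summits at 61692 and 61852 had 43 and 42 fragments and fold enrichments of 7.82 and 8.57. On Scaffold3646 the summits at 64148 and 64293 had 111 and 84 fragments over scaled inputs of 28.3 and 20.0. Of the 8, this pair and that on Scaffold81 had over 80 fragments at both summits. The pair on Scaffold4952, at 68545 and 68707, had 31 and 44 fragments over scaled inputs of 2.06 and 2.03. The pair on Scaffold3317, at 77248 and 77401, had 35 and 43 fragments, and the pair on Scaffold945, at 55170 and 55358, had 39 and 36. The counting intervals of the 2 summits overlapped in each of the 8 pairs.

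**Figure D3:**
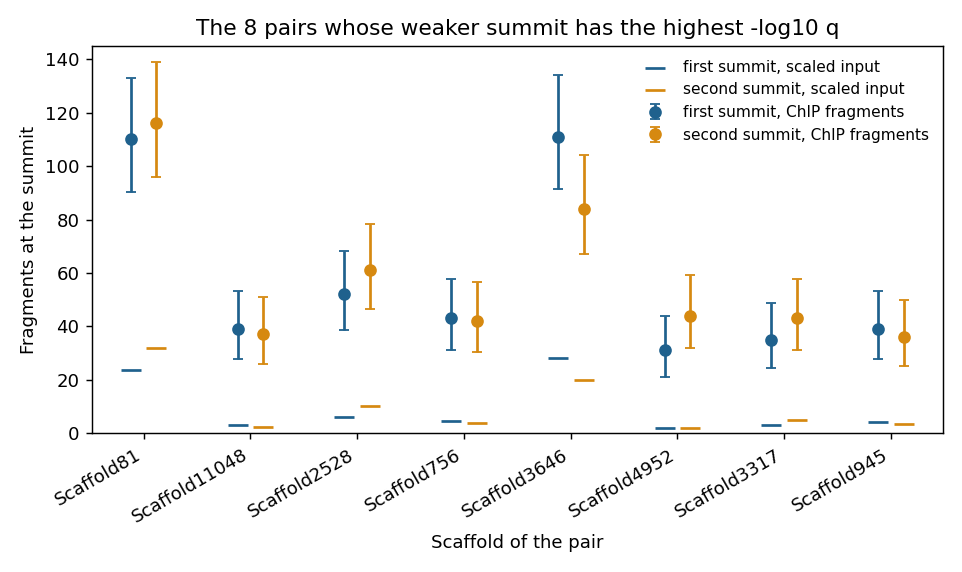
ChIP fragments (points, with 95% Poisson intervals) and scaled input (dashes) at the first and the second summit of the 8 pairs whose weaker summit has the highest −log10 q, by scaffold (x axis). The pairs on Scaffold81 and Scaffold3646 have 84 to 116 fragments over a raised input, and the other 6 have 31 to 61.

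Both summits had a fold enrichment of 10 or more in 1 pair, that on Scaffold4952, with 10.5 and 14.9. The second of these was the highest fold enrichment of any member, with 44 fragments (32.0 to 59.1). In 24 pairs a single summit reached 10. By the lower fold enrichment of the pair, Scaffold11048 came next, followed by Scaffold16113 with summits at 5459 and 5608. These both had 26 fragments over the genome-wide mean, a fold enrichment of 9.75 at each. On Scaffold8322, at 258 and 399, the summits had 27 and 26 fragments and fold enrichments of 10.1 and 8.83.

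The summits of a pair often had similar numbers of fragments. The lower summit had a median of 0.814 times the fragments of the higher (95% interval 0.792 to 0.844), with quartiles of 0.703 and 0.917. The ratio was 0.8 or more in 207 pairs (53.6%) and 0.5 or less in 8 (2.07%), and 24 pairs had equal fragments. Without the 30 pairs closer than 84 bp the median was 0.809. Neighbouring summits 200 to 1000 bp apart had a median ratio of 0.812 (984 pairs), and those more than 1000 bp apart 0.781 (4116 pairs). The 95% Poisson intervals of the 2 summits overlapped in 375 of 386 pairs (97.2%), against 94.0% at 200 to 1000 bp and 93.5% at more than 1000 bp. Overlap of these intervals was common at every distance and does not show that the 2 heights were equal. The median ratios within 200 bp and at 200 to 1000 bp were close.

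Across pairs, Pearson's r between the log2 fragments of the first and the second summit was 0.743 (rho 0.630, 386 pairs), against 0.777 at 200 to 1000 bp and 0.362 at more than 1000 bp. For the scaled input r was 0.809, against 0.812 and 0.397 at those distances. For the fold enrichment it was 0.392 (rho 0.315), against 0.516 and 0.173. These are descriptions across sites of 1 library. Summits within 200 bp share a library and most of their input windows of 1 kb and 10 kb. Below 84 bp they can share fragments as counted here, and wider pairs may share longer DNA pieces. Height and background of close summits went together, while their ratio, the fold enrichment, was less alike.

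The background also differed within pairs. The lower scaled input was a median of 0.750 times the higher one (0.704 to 0.770), and in 33 pairs (8.55%) both were the same. In 334 pairs both fragments and input differed, and the summit with more fragments also had more input in 213 of them (63.8%). Of the 362 pairs with unequal fragments, the summit with more fragments had the higher fold enrichment in 234 (64.6%).

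In 11 pairs (2.85%) the counting intervals of the 2 summits did not overlap, with 1.57 to 3.35 times as many fragments at the higher summit. In 10 of the 11 the higher summit also had the higher scaled input. The largest difference was on Scaffold36252, near its start, where the summit at 61 had 77 fragments (60.8 to 96.2) and that at 227 had 23 (14.6 to 34.5). Their scaled inputs of 19.0 and 5.14 differed in the same direction, and the fold enrichments were 3.90 and 3.91. On Scaffold2718 the summits at 34375 and 34511 had 92 and 36 fragments, again with similar fold enrichments of 4.65 and 4.06. On Scaffold13352 the summits at 5358 and 5527 had 28 and 70 fragments over closer scaled inputs of 5.05 and 6.17. Their fold enrichments were 4.79 and 9.90, so here the difference remained over the background. On Scaffold16613 the summits at 99 and 229 had 42 and 18 fragments and fold enrichments of 9.35 and 5.85.

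The 1 such pair in which the higher summit had the lower scaled input was on Scaffold868, a pair chosen after its values were seen. Its second summit, at 13265, had 71 fragments (55.5 to 89.6) over a scaled input of 5.65 and the highest −log10 q of all members, 45.4. The first, at 13109, had 35 fragments over 8.23. The fold enrichments were 3.90 at the first summit and 10.8 at the second.

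**Figure D4:**
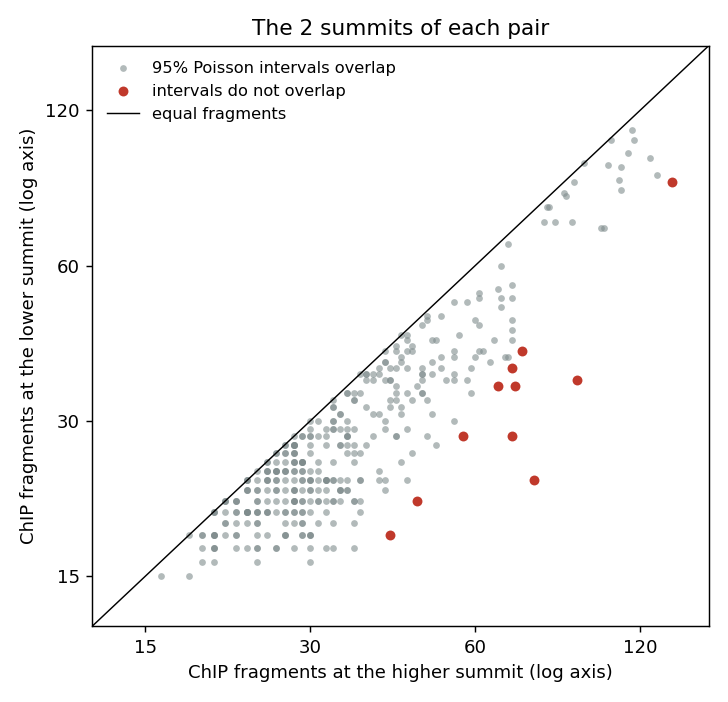
ChIP fragments at the lower summit (y axis) against the higher summit (x axis) of each of the 386 pairs, both on log axes, with the line of equal fragments. The 11 pairs whose 95% Poisson intervals do not overlap are in red and the other 375 in grey. The pair farthest from the line is that on Scaffold36252, with 77 and 23 fragments.

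Scaffold2718 held the most members, 12 of its 22 peaks, with all 22 summits between 32981 and 47742. Its members formed 3 pairs and 2 runs of 3. Their median was 89.5 fragments. They lay over a median of 33.2 fragments of scaled input (18.7 times the genome-wide mean), and the fold enrichments ran from 1.95 to 4.95 with a median of 2.75. The summits at 46266, 46428 and 46604, 162 and 176 bp apart, had 94, 105 and 117 fragments over scaled inputs of 35.0, 39.6 and 45.2. The widest member, 657 bp at 43544 to 44200, had the most fragments of any member, 137 (115 to 162), and its partner at 43430, 171 bp away, had 87. The lowest fold enrichment of the scaffold's members was at 33125, with 66 fragments over a scaled input of 33.4. Many fragments on this scaffold thus lay over a raised input. Without it the median fold enrichment of members was 5.74.

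**Figure D5:**
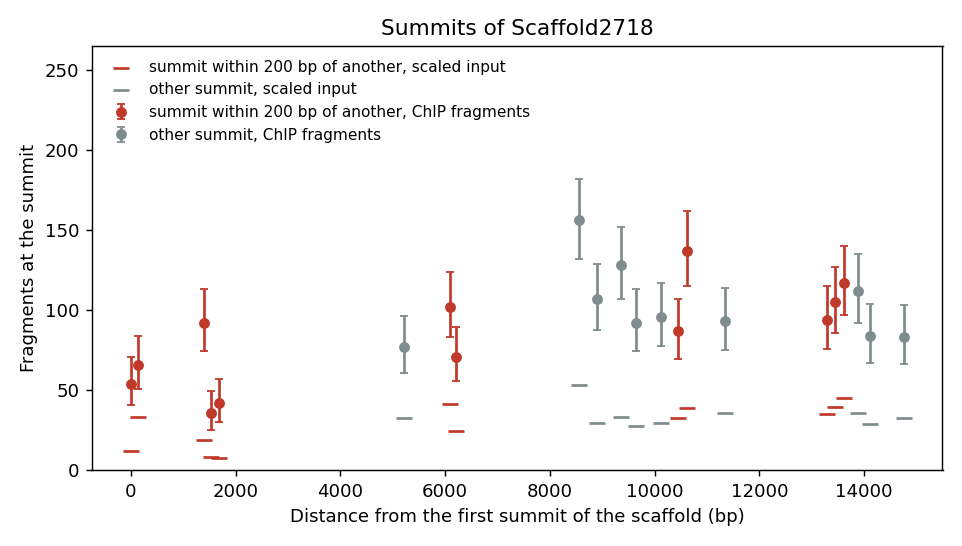
ChIP fragments (points, with 95% Poisson intervals) and scaled input (dashes) at the 22 summits of Scaffold2718 by distance from its first summit in bp (x axis), with members in red and other summits in grey. The 12 members have 36 to 137 fragments over a scaled input of 7.69 to 45.2.

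Member intervals were short. Their median width was 95 bp (94 to 97), the same as the 95 bp (94 to 95) of all sea star peaks, with quartiles of 87 and 109 bp. Of the members, 374 (49.1%) were within 10 bp of the smallest width of 84 bp, against 6895 of all peaks (49.3%). In 92 pairs (23.8%) this held for both. A width of 200 bp or more was found for 8 members (1.05%), against 181 of all peaks (1.29%). A close neighbour leaves little room for a wide interval, so the widths are given as a description.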

How the data were processed

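Sea star and sea urchin peak lists, 1 per species, were analysed; the input libraries enter through the background of each peak. The submitters' processing notes name MACS2 2.1.0, with Bowtie2 2.2.2, SAMtools 0.1.19 and CASAVA 1.8; for settings and genome builds, the sources used here give nothing. The deposited fold enrichment is a ratio of ChIP signal to background at the summit, and the deposited −log10 p and −log10 q rate the summit against that background. The deposited score of the sea star list equals, by the values, the whole part of 10 times −log10 p in 100% of peaks. The sea star list reached down to 5.13 in −log10 p, and the sea urchin list to 1.32 in −log10 q. Positions are 1-based.

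Fragments at each summit were solved as the whole number, up to 599, for which the fold enrichment, taken as (fragments + 1) / (background + 1), gave the deposited −log10 p by the upper Poisson tail. It was met within 0.001 in 100% of peaks of both lists. The background is the scaled input. Its steps were 0.514 ChIP fragments per input read with a fragment of 84 bp, and its floor of 1.77 is the genome-wide mean, a depth of 21.1 ChIP and 41.0 input reads per kb of the caller's genome size, which no source used here gives. Library totals were not used. Poisson intervals cover counting error only, as the reads carry no molecular identifiers. Solving and pairing were tested on simulated data. Python 3.11.15, NumPy 2.4.6, SciPy 1.17.1, pandas 2.3.3 and matplotlib 3.10.9 were used.

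The members, the limits and the rule for named pairs were chosen with earlier results of these data known. Named pairs are the 8 with the highest lower −log10 q, the 4 with the highest lower fold enrichment, the 3 closest, the 3 widest, the 3 just outside the limit, the 4 with the largest fragment ratio, each run of 4 summits, and the scaffold with most members. The runs of 3 named were chosen after their values were seen.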

Additional observations from a re-analysis of the deposited data

How the results depend on the processing

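Over 8 results and 10 alternatives, 62 of 80 values stayed within the 95% interval of the reported value, or within 1.5 times for the count of members. The count of 761 became 366 at a −log10 q of 10 or more, 356 with pairs within 150 bp and 403 with intervals 50 bp or less apart merged, since each leaves fewer close summits. With pairs within 250 bp the count was 1098, still within 1.5 times. The median fold enrichment was 6.26 at that −log10 q, 5.49 within 150 bp, 6.02 after merging and 6.14 without peaks at 5 or more times the mean input. Median fragments were 34 at that −log10 q, 27 within 150 bp and 27 without high input, and the median scaled input was 4.63 at that −log10 q and 3.60 without high input. The median width was 93 bp within 150 bp, and the fragment ratio was 0.846 at that −log10 q. The median distance was 163 bp at that −log10 q, 122 and 172 bp with limits of 150 and 250 bp, which set it, and 169 bp after merging. The share of overlapping Poisson intervals stayed between 97.15% and 98.32%. The alternatives without pairs closer than 1 fragment and without Scaffold2718 were added after the data had been seen. With 1 library a group, no replicate could be left out or paired. The share of T-box motifs was not computed, as no sea star genome was used. Depth limits single summits: the median member rests on 29 fragments.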

Other observations

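Narrow gaps between sea star peaks were not spread evenly. Over the 5486 neighbouring peaks of the list, 38 gaps were 1 to 4 bp, 12 were 5 to 8 bp, 11 were 9 to 12 bp and 16 were 13 to 16 bp. Of the 38 narrowest, 37 separated summits within 200 bp of each other. The part of the caller's settings in these gaps was not tested.

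The sea urchin peaks taken by the same distance rule had a median of 23 fragments. Their median scaled input was 5.15, or 3.40 times that list's genome-wide mean, and they had a median fold enrichment of 3.66, against 4.15 over all sea urchin peaks. The lists were made with different limits and the values of the 2 species were not compared.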
